A study of Mus musculus with 9 samples.

Results

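The 85 peaks described here are the ZEB1 CUT&RUN peaks that lie within 1 kb of a transfer RNA (tRNA) gene, out of 23623 consensus peaks. The rule for a peak used position alone, from the tRNA genes that the RefSeq table of mouse build GRCm38 places on chromosomes. This class of peaks and the gene lists below were chosen with earlier results of these data known. CUT&RUN recovers the DNA that a nuclease tethered to an antibody cuts beside the antibody's target, here ZEB1, a zinc-finger repressor of epithelial genes. The cells were PB3, a mouse breast cancer line that the labels give as negative for the oestrogen, progesterone and Her2 receptors, and all groups were grown in the same medium. The control group was untreated PB3-Parental cells. The other 3 groups, labelled PB3_ERI, were treated for 24, 48 or 72 h with 300 nM eribulin, which stops microtubules from growing. Each group had 2 libraries. The labels do not say whether the 2 are separate cultures, so a p-value here measures no more than the spread between these libraries, which may be technical. With bulk libraries, signal lost in some cells and weaker signal in all cells cannot be told apart. The assay reads occupancy and not expression, so the labelled line was not checked against expressed markers. Sample descriptions call the material Tn5 fragmented genomic DNA while the protocol is CUT&RUN with the CUTANA kit, and the labels do not reconcile these.

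tRNAs carry amino acids to the ribosome, and cells hold many near-identical gene copies of them, often in clusters. RNA polymerase III transcribes these short genes from promoter elements inside the gene, the A-box and the B-box, which the factor TFIIIC binds before it recruits TFIIIB. ZEB1 binds E-box sequences and is known for its work at RNA polymerase II promoters. Each peak is named below by the tRNA gene nearest to it. In such a name, as in n-TNgtt11, the letter after T gives the amino acid and the next 3 letters the anticodon, and a final point and digit tells apart peaks that share a nearest gene. Copies can share reads, and since handling of reads with several placements was not given in the sources used here, any choice of copy is uncertain for every peak that overlaps a tRNA gene.

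Sequence was at hand for 4 of the 408 nuclear tRNA genes, those that fall whole inside a RefSeq promoter window of GRCm38.p6. They show the internal promoter that defines the class. Capitals mark the start of the A-box (TNGNNNA) and the B-box (GTTCNANNC). The first gene, n-TRtcg5, lies at chr7:79466419-79466491 on the + strand and is covered by a peak. The next, n-TVcac9 at chr13:23446142-23446214 on the - strand, has 2 peaks beside it and none over it. The last 2, n-TAagc16 at chr13:21222586-21222657 (+) and n-TTagt9 at chr7:35234770-35234843 (-), have no peak within 1 kb.
n-TRtcg5: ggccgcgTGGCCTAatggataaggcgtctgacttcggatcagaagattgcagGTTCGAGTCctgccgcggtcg
n-TVcac9: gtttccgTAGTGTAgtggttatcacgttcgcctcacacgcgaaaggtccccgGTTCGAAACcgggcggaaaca
n-TAagc16: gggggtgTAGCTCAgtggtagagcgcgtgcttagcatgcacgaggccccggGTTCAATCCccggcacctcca
n-TTagt9: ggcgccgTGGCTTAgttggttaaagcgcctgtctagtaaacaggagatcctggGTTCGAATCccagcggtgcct
In all 4 the A-box match began at base 8 and the B-box match at base 52, 53 or 54. Genes with and without a peak both held the 2 elements. None of the 4 held the E-box letters CAGGTG or CACCTG, the only E-box form searched.

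A second set of sequences shows what else lay under the peaks. The peak n-TLaag4 at chr7:120917539-120917750 covered both the end of a leucine tRNA gene (120917517-120917598) and bases before Polr3e, which encodes an RNA polymerase III subunit. The bases chr7:120917528-120917627 (+), which begin before the peak, hold the last 71 bases of the tRNA gene. Its B-box is in capitals, and the T-rich stretch that follows comes after it. The peak n-TEctc12 at chr3:97158638-97158974, one of 2 that rose, began before Acp6, and its part before the gene start is chr3:97158638-97158751 (+). The peak n-TNgtt11, one of the 2 strongest, also covered the small nuclear RNA gene LOC115489800 at chr3:96450446-96450611 (+).
n-TLaag4 and Polr3e: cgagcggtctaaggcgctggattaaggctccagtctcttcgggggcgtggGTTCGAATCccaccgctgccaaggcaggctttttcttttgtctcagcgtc
n-TEctc12 peak before Acp6: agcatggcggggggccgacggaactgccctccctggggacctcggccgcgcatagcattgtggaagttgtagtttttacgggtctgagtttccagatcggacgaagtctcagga
LOC115489800: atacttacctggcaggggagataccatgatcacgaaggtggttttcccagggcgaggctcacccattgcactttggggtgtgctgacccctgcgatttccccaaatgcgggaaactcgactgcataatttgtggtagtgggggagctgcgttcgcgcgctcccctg
Across RefSeq promoter windows of 300 bases, the E-box letters on either strand were in 20.2% of all 32817 windows, in 16.4% of the 7300 windows that overlapped a consensus peak, and in 2 of the 34 windows that overlapped a tRNA-gene peak. B-box letters on either strand were in 9.33%, 7.63% and 6 of 34 of the same windows. These are matches of letters and not binding sites. Only CAGGTG and its reverse CACCTG were counted as an E-box, so peaks without a match may hold other forms.

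Of the 408 nuclear tRNA genes, 102 had a consensus peak within 1 kb, a share of 25% (Wilson 95% interval 21.0 to 29.4, which covers the counting of genes only). A peak overlapped the tRNA gene itself for 41 of them, or 10.05%. Counted in the same way, the share was 6.08% of small nuclear RNA genes, 7.57% of microRNA genes, 3.96% of small nucleolar RNA genes and 0 of 63 ribosomal RNA genes. It was 44.1% of protein-coding genes, but there a peak anywhere inside the gene counts too, so gene length enters that share. None of the 22 mitochondrial tRNA genes had a peak (Wilson upper bound 14.9%), and the labels do not say whether mitochondrial reads were kept. The share went with the neighbourhood of the gene. It was 34 of 49 tRNA genes (69.4%) with a protein-coding gene boundary, meaning a start or an end, within 1 kb, and 68 of 359 (18.9%) without. It was 29 of 111 for lone tRNA genes, 40 of 138 in clusters of 2 to 5 and 33 of 159 in clusters of over 5.

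The share also varied with the amino acid, as plotted by amino acid. Tyrosine genes led with 6 of 10, followed by arginine with 12 of 24 and histidine with 5 of 11. Cysteine genes, the most numerous with 57 copies, had a peak at 4, and glycine genes at 3 of 28. The interval was 2.76 to 16.7% for cysteine and 31.4 to 68.6% for arginine, but such intervals treat gene copies as independent. By chromosome the share was 8 of 10 on chromosome 19, 23 of 105 on chromosome 13, 4 of 53 on chromosome 6 and 2 of 37 on chromosome 1. Most cysteine genes lie close together on chromosome 6, so the cysteine and chromosome 6 shares largely count the same genes. Copies in one cluster share a neighbourhood, so these genes are not independent.

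**Figure D1:**
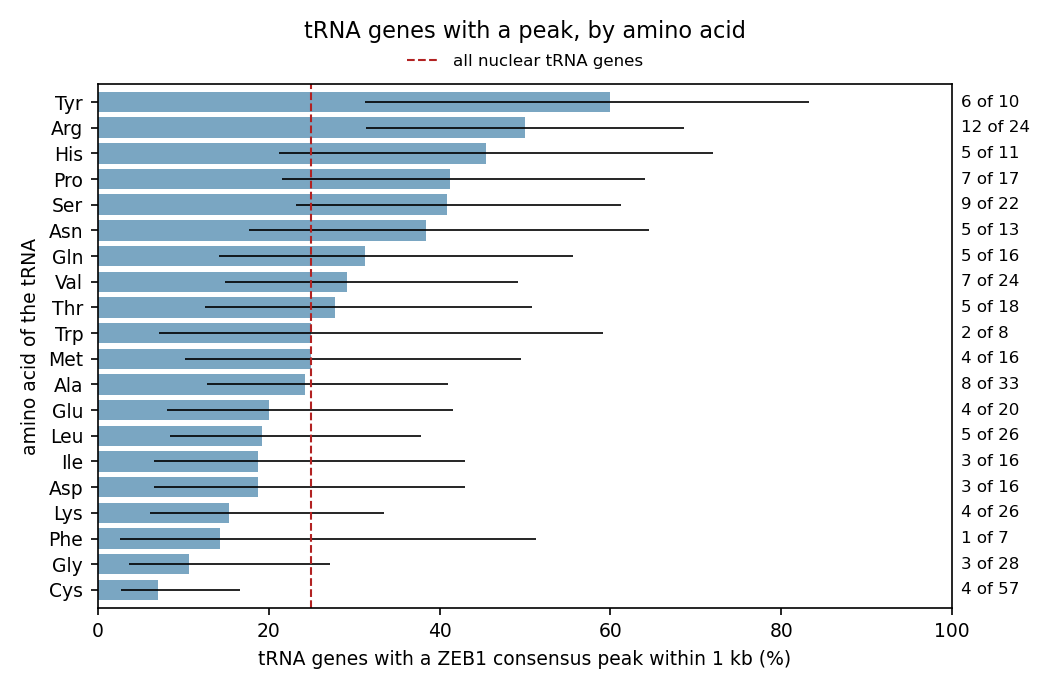
Share of nuclear tRNA genes with a ZEB1 consensus peak within 1 kb (x axis, percent) for each amino acid (y axis), with Wilson 95% intervals as lines and the counts at the right. Tyrosine genes are highest at 6 of 10 and cysteine genes lowest at 4 of 57, against 25% for all (dashed line).

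Of the 85 peaks, 37 overlapped a tRNA gene and 48 lay beside one. A single tRNA gene was within 1 kb for 51 peaks, 2 for 25, 3 for 4 and 4 for 5. A protein-coding boundary lay within 1 kb of 35 (41.2%), against 29.3% of all consensus peaks. It did so for 10 of the 37 overlapping peaks and 25 of the 48 beside, so position and boundary go together. Only 2 peaks had a small nuclear RNA gene in reach, and 48 had neither kind of neighbour. The median width was 285 bp, from 15 to 1767, against 347 bp for all peaks, with 370 bp for overlapping peaks and 237.5 bp for those beside.

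In untreated cells most of these peaks were in the deposited peak list, and in eribulin few were. The authors deposited 1 peak list per group, called against an IgG library, so no replicate spread exists for a list. The untreated list held 69 of the 85 (81.2%), the 24 h list 24 (28.2%), the 48 h list 28 (32.9%) and the 72 h list 30 (35.3%). For all consensus peaks the same shares were 78.7%, 63.0%, 60.2% and 51.6%. Peaks in the untreated list and in no eribulin list made up 40 of the 85 (47.1%), against 18.98% of all consensus peaks. Peaks in all 4 lists made up 14 (16.5%), against 34.7%. Of the 40 in the untreated list alone, only 19 passed the count filter of the edgeR test given below. With the treatment times averaged, that test called 3 of the 19 lower than control. The 19 had a median log2 fold change of -0.45, and 18 were negative. For all consensus peaks in the untreated list alone, 580 of 3111 tested were called lower, with a median of -0.51. Absence from the eribulin lists is thus not the same as a called fall. Of the 37 peaks that overlapped a tRNA gene, 35 were in the untreated list and 10, 10 and 14 in the lists at 24, 48 and 72 h. Without a protein-coding boundary or small nuclear RNA gene in reach, overlapping peaks numbered 25, with 24, 6, 4 and 6 in the 4 lists in the same order. The 10 overlapping peaks at a boundary were in 9, 2, 4 and 6. The 25 peaks that lay beside a tRNA gene and at a boundary were in 16, 10, 14 and 13. For the 23 beside a tRNA gene without a boundary the counts were 18, 4, 4 and 3, so these too were mostly absent from the eribulin lists.

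Where tRNA-gene peaks were listed, their median strength over IgG was below that of all consensus peaks in each of the 4 lists. The authors' fold over IgG had a median of 6.25 in the untreated list, 6.23 at 24 h, 7.82 at 48 h and 5.73 at 72 h, against 7.14, 7.43, 8.92 and 6.82 for all consensus peaks. The highest value, 30.4, was that of n-TNgtt13 in the untreated list. With a stricter minimum of 5 for the −log10 of the authors' q, the shares were 49.4%, 15.3%, 22.4% and 17.6%, against 59.997%, 44.9%, 52.1% and 33.9% of all consensus peaks. At that minimum the share in the untreated list was below that of all peaks, where it was above without it. List membership went with level: peaks in the untreated list alone had a median mean level of 11.9 CPM (counts scaled to the library's total in tested peaks), and those in all 4 lists 73.1 CPM. The part of the limit of detection in leaving a list was not tested.

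**Figure D2:**
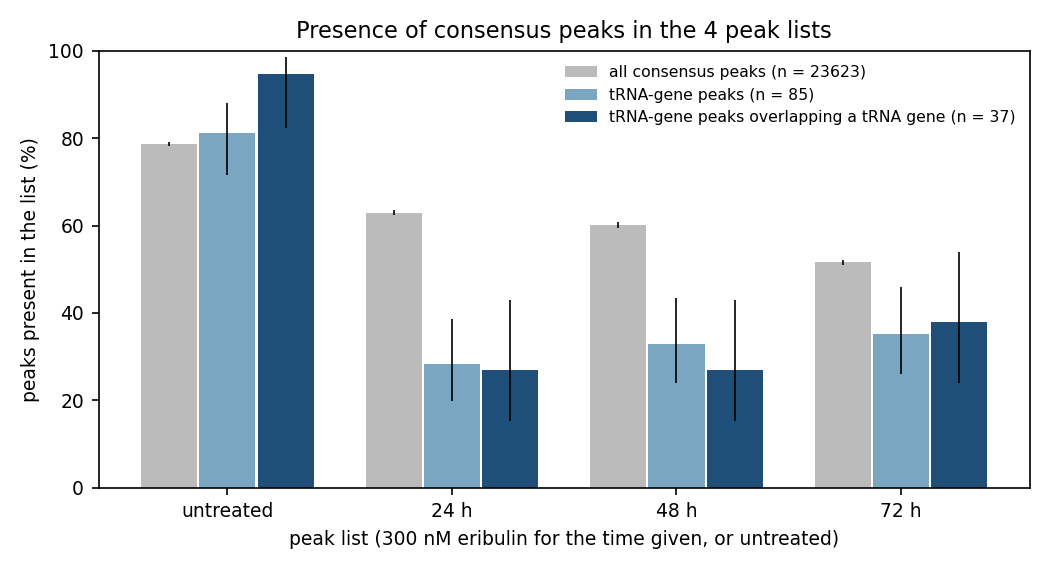
Share of consensus peaks present in each of the 4 deposited lists (x axis, list; y axis, percent; lines are Wilson 95% intervals) for all peaks, tRNA-gene peaks and those overlapping a tRNA gene. All 3 sets are near or above 78.7% in the untreated list, while tRNA-gene peaks are at 28.2 to 35.3% in the eribulin lists and all peaks at 51.6 to 63.0%.

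The summits in the untreated list sat close to the tRNA genes but mostly not inside them. The distance from the summit to the nearest tRNA gene had a median of 182 bp (quartiles 76 and 376, n = 69), 7 summits lay inside a tRNA gene, and 38 (55.1%) were within 200 bp. The median was 273.5 bp at 24 h (n = 24), 309.5 bp at 48 h (n = 28) and 246.5 bp at 72 h (n = 30). Inside a tRNA gene there were 0, 1 and 1 summits at those times. A tRNA gene is short, with a median of 72 bases. The rule itself holds peaks to the neighbourhood of a tRNA gene, so the distances describe them and are no test. Flanking peaks were common too: 24 tRNA genes had 2 or more peaks within 1 kb, and for 15 of these no peak overlapped the gene.

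**Figure D3:**
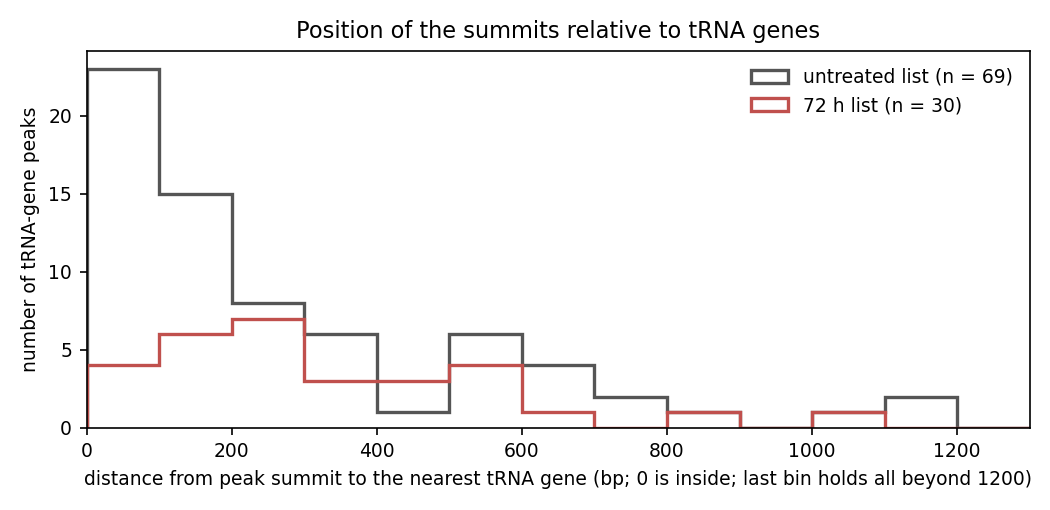
Number of tRNA-gene peaks (y axis) by distance from summit to nearest tRNA gene in bins of 100 bp (x axis, bp) in the untreated list (n = 69) and the 72 h list (n = 30). The untreated summits gather in the nearest bins, with 38 within 200 bp, and 10 of the 72 h summits are that near.

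Counts gave the change in replicate libraries. The 8 libraries held 326944 to 765015 reads in consensus peaks, and replicates differed by about counting error (chi-square per degree of freedom 0.931 to 1.06 within groups and 1.12 to 2.28 between groups). No control DNA added at a fixed amount was used here for scaling, so each change is relative to the other peaks of a library. A filter on low counts left 57 of the 85 tested. The 28 that failed it had a median of 4 counts per library, against 15 for the tested and 17 for all peaks. A weak peak could pass through the group where it is high, so counts over the tested peaks are a description. Each SE below belongs to a fitted log2 change.

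The median level of the 85 peaks was 22 and 19.9 CPM in the 2 control libraries. It was 15.3 and 16.4 CPM after 24 h, 19.8 and 17.1 after 48 h, and 18.5 and 18.8 after 72 h. All 6 treated libraries lay below both controls, one of the 48 h libraries only just, and the median over all consensus peaks stayed between 30.6 and 33.0 CPM in the 8 libraries. The tRNA-gene peaks summed to 0.311% and 0.294% of the total in tested peaks in the control libraries and to 0.218 to 0.271% in the treated ones. Without the peaks that had a small nuclear RNA gene in reach, the sums were 0.240% and 0.220% in controls and 0.184 to 0.245% in treated libraries. Replicate 2 at 72 h, at 0.245%, was then above both controls. For the 37 overlapping peaks the median was 35.8 and 25.99 CPM in controls and 17.1 to 23.8 CPM in treated libraries. For the 48 beside it was 17.9 and 15.3 CPM against 12.0 to 16.2 CPM, so these groups overlapped.

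Over the mean of the 3 treatment times against control, 2 of the 57 tested peaks rose and 8 fell (edgeR quasi-likelihood test, p adjusted by Benjamini and Hochberg's method, threshold 0.05). Among all 21192 tested peaks 8.27% were called higher and 8.53% lower. The 8 falls were all at peaks that overlapped a tRNA gene, and both rises were beside one, at a protein-coding gene. The median log2 fold change was -0.17 for the 57, against -0.01 for all tested peaks. It was -0.41 for the 29 overlapping peaks, 24 of which were negative, with 0 called higher (also 0 at an unadjusted p below 0.05, and 0 by DESeq2). It was 0.07 for the 28 beside, with 0 called lower (4 of the 28 had an unadjusted p below 0.05 in either direction). The difference between overlapping and beside was not tested. A protein-coding boundary goes with it. Among overlapping peaks without a boundary or small nuclear RNA gene, 6 of 18 fell, with a median of -0.51. Of the 9 overlapping peaks with a boundary 0 fell, with a median of -0.27. Among peaks beside a tRNA gene, the 11 tested without a boundary had a median of -0.24, with 0 called. The 17 tested with a boundary had a median of 0.20, with 2 called higher and 0 lower. Among all 6237 tested boundary peaks 798 rose and 157 fell, with a median of 0.20.

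**Figure D4:**
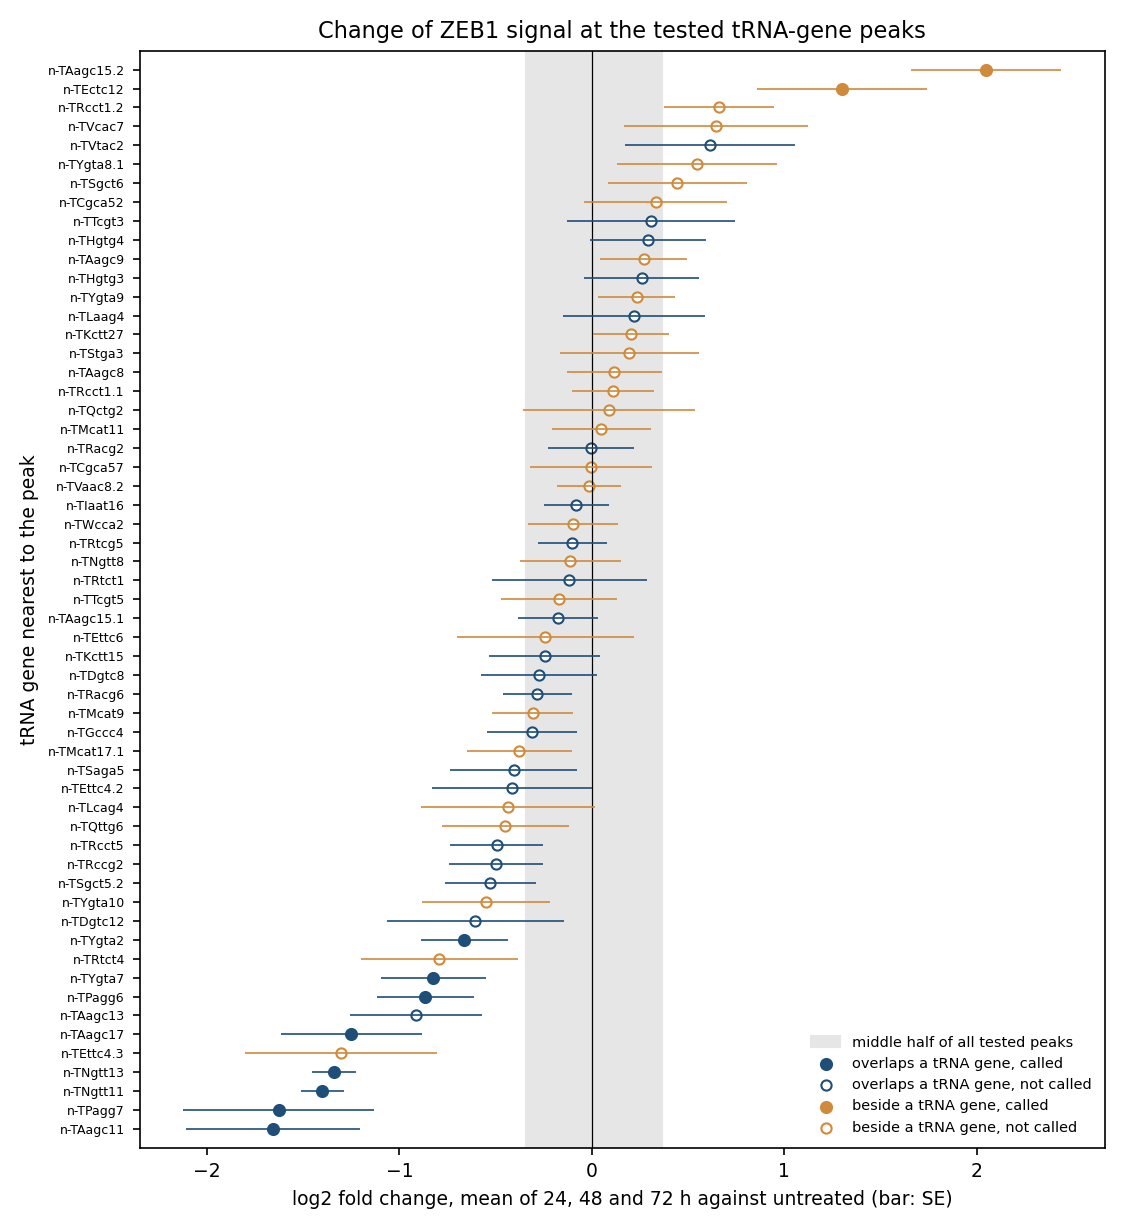
Log2 fold change, mean of 24, 48 and 72 h against untreated, with its standard error (x axis) for the 57 tested tRNA-gene peaks (y axis, nearest tRNA gene). Filled points passed the test: 8 falls, all overlapping a tRNA gene, and 2 rises, both beside one; the grey band is the middle range of all tested peaks.

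The fall was firmest at 2 broad asparagine tRNA peaks on chromosome 3, which also covered small nuclear RNA genes. n-TNgtt11 (chr3:96450178-96451544) reached from LOC115489800 to the asparagine tRNA gene at 96451425-96451498, lay inside BC107364 and had a histidine tRNA gene in reach. Its level was 336 and 389.8 CPM in controls, 174 and 180.1 after 24 h, 109.8 and 121 after 48 h, and 136 and 129 after 72 h. Every treated library was below both controls. The log2 fold change was -1.05 (SE 0.13) at 24 h, -1.68 (SE 0.14) at 48 h and -1.47 (SE 0.16) at 72 h, and -1.40 (SE 0.11) over the mean, with an edgeR adjusted p of 5.59e-20 for the mean. The second, n-TNgtt13 (chr3:96458702-96460468), lay over the asparagine tRNA gene at 96459138-96459211 and over Rnu1b6, a gene of the U1 small nuclear RNA that takes part in splicing. It had 374 and 345 CPM in controls, then 205 and 184, 116 and 125, and 116 and 125. Again no treated library reached a control. The mean log2 fold change was -1.34 (SE 0.11, edgeR adjusted p 1.77e-18).

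In both peaks the signal centred nearer the small nuclear RNA gene. The summit of n-TNgtt11 was 373 bp from LOC115489800 and 441 bp from the nearest tRNA gene in the untreated list, and 102 and 712 bp at 48 h. That of n-TNgtt13 was 150 bp from Rnu1b6 and 1128 bp from the nearest tRNA gene in the untreated list, and 88 and 725 bp at 48 h. Of all 61 tested peaks near small nuclear RNA genes, 37 were called lower over the mean, with a median of -0.80. Which gene in these 2 peaks the fall belongs to cannot be told apart from counts over the whole peak. Without the 2 peaks, 2 tRNA-gene peaks rose and 6 fell.

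The other 6 falls were at weaker peaks with no boundary or small nuclear RNA gene in reach. n-TPagg7 (chr7:98815507-98815691), at a proline tRNA gene, had 19.2 and 19.9 CPM in controls, 5.12 and 2.73 after 24 h, 2.65 and 8.55 after 48 h, and 11.6 and 12.6 after 72 h. n-TAagc17 (chr13:21234081-21234420), in a cluster of 10 tRNA genes and at an alanine gene, had 24.8 and 30.6, then 22.2 and 13.6, 10.6 and 13.7, and 6.93 and 9.41 CPM. Its 72 h libraries were the lowest, whereas those of n-TPagg7 were lowest at 24 and 48 h. The log2 fold changes over the mean were -1.63 (SE 0.50, edgeR adjusted p 0.0147) for n-TPagg7 and -1.25 (SE 0.37, edgeR adjusted p 0.0109) for n-TAagc17. No treated library of either peak reached a control.

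A second proline gene, n-TPagg6 (chr6:29388289-29389099), was stronger, with 49.5 and 53.5 CPM in controls, 34.1 and 39.6 after 24 h, 26.5 and 22.2 after 48 h, and 18.5 and 34.5 after 72 h. Its mean log2 fold change was -0.86 (SE 0.25, edgeR adjusted p 0.00989). n-TYgta7 (chr13:23432683-23433163), at a tyrosine gene, had 55.0 and 36.7 CPM in controls, 18.8 and 24.6, 33.1 and 32.5, and 23.1 and 15.7 CPM in turn, with a mean log2 fold change of -0.82 (SE 0.27, edgeR adjusted p 0.0278). The groups did not overlap in either. The remaining 2 falls had groups that overlapped and are named because their values were seen. n-TAagc11 (chr13:23299108-23299285) had 16.5 and 29.1 CPM in controls and 1.32 to 18.8 in treated libraries, with -1.66 (SE 0.45, edgeR adjusted p 0.0059). n-TYgta2 (chr3:19628185-19629111), which has 4 tRNA genes within 1 kb, had 74.3 and 52.0 CPM in controls and 23.9 to 55.5 in treated libraries, with -0.66 (SE 0.23, edgeR adjusted p 0.0317).

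The 2 rises were at protein-coding genes and beside, not over, a tRNA gene. n-TAagc15.2 (chr5:30888937-30889500) lay 350 bp from an alanine tRNA gene and inside Agbl5, which encodes a carboxypeptidase that removes glutamates from tubulin. It had 13.8 and 6.11 CPM in controls, 35.8 and 39.6 after 24 h, 30.4 and 34.2 after 48 h, and 48.5 and 34.5 after 72 h, with every treated library above both controls. The mean log2 fold change was 2.05 (SE 0.39, edgeR adjusted p 5.94e-05). The neighbouring peak over the tRNA gene itself, n-TAagc15.1 (chr5:30888019-30888773), is named after its values were seen. It had 63.3 and 64.2 CPM in controls and 47.6 to 66.9 in treated libraries, with a mean log2 fold change of -0.17 that was not called (edgeR adjusted p 0.603).

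n-TEctc12, the peak at the start of Acp6 printed above, lay 482 bp from a glutamate tRNA gene. Acp6 encodes a lysophosphatidic acid phosphatase. The peak had 11 and 7.64 CPM in controls, 17.1 and 21.8 after 24 h, 22.5 and 12.0 after 48 h, and 27.7 and 34.5 after 72 h, and the groups did not overlap. The mean log2 fold change was 1.30 (SE 0.44, edgeR adjusted p 0.0295).

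Several of these calls ended when 1 control library was left out. The log2 fold changes over the mean kept their sign without control replicate 2. They were 1.43 for n-TAagc15.2, 0.998 for n-TEctc12, -1.59 for n-TPagg7 and -1.04 for n-TAagc17. For n-TPagg6 the value was -0.79, for n-TYgta7 -1.16, for n-TAagc11 -1.08 and for n-TYgta2 -0.96. Without control replicate 2, edgeR called 3 tRNA-gene peaks over the mean, all lower (n-TNgtt11, n-TNgtt13 and n-TNgtt12, which the filter removes when all libraries are used), and 0 higher (1 higher at an unadjusted p below 0.05), when 1.41% and 1.59% of all peaks were called higher and lower. The adjusted p without that library was 0.125 for n-TAagc15.2, 0.412 for n-TEctc12, 0.232 for n-TPagg7, 0.328 for n-TAagc17, 0.261 for n-TPagg6 0.0691 for n-TYgta7, 0.455 for n-TAagc11 and 0.0724 for n-TYgta2. Without control replicate 1 it was 0.0704 for n-TEctc12, 0.061 for n-TPagg7, 0.288 for n-TYgta7 and 0.315 for n-TYgta2. Leaving out 1 treated library ended the call for n-TEctc12 (24 h replicate 2, adjusted p 0.057; 48 h replicate 1, 0.102), n-TPagg6 (72 h replicate 1, 0.0539), n-TYgta7 (72 h replicate 2, 0.0556) and n-TYgta2 (24 h replicate 1, 0.0574, and 48 h replicate 1, 0.0562). At each single time against control, every call other than those of n-TNgtt11 and n-TNgtt13 ended when some 1 library was left out. The calls for n-TNgtt11 and n-TNgtt13 over the mean held in all 15 alternative fits. DESeq2 called 3 over the mean, n-TNgtt11 and n-TNgtt13 lower and n-TAagc15.2 higher, when it called 0.571% of all peaks higher and 0.519% lower, and gave no adjusted p for 25 of the 57.

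**Figure D5:**
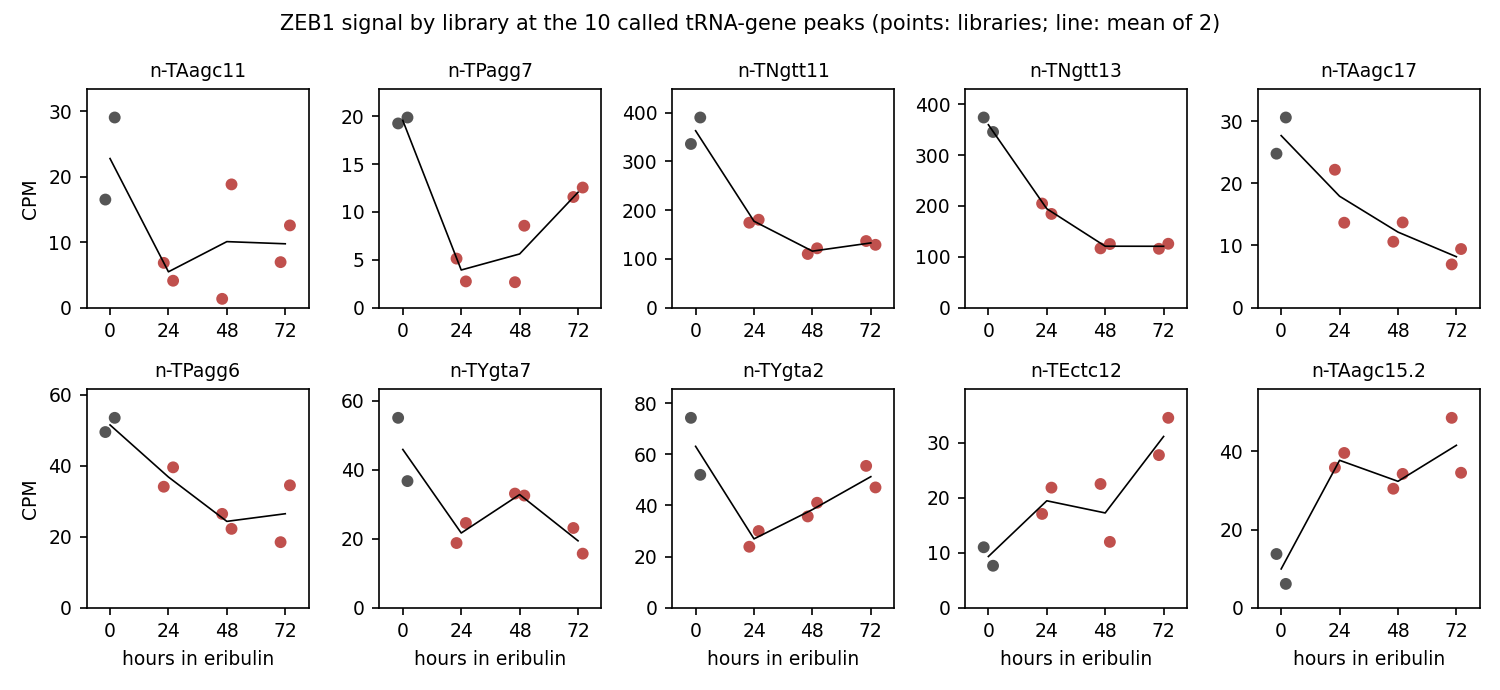
CPM (y axis) in each of the 8 libraries by hours in 300 nM eribulin (x axis, 0 is untreated) for the 10 tRNA-gene peaks called over the mean; points are libraries and lines join the means of 2. n-TNgtt11 and n-TNgtt13 drop from over 300 CPM to below 210 in every treated library, and n-TAagc15.2 and n-TEctc12 rise.

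At 24 h alone, 1 tested peak rose and 8 fell, when 6.44% of all tested peaks were called higher and 4.61% lower. All 3 times share the 2 control libraries, so each is given with its own values. The rise at 24 h was n-TAagc15.2 (log2 fold change 2.07, SE 0.43). The falls were all at overlapping peaks. n-TAagc11 fell by 2.16 on the log2 scale (SE 0.59, edgeR adjusted p 0.00906) and n-TPagg7 by 2.31 (SE 0.67, edgeR adjusted p 0.0143). n-TAagc13 (chr13:23431379-23431659), at another alanine gene, had 30.3 and 27.5 CPM in controls and 15.3 and 8.19 at 24 h, with a log2 fold change of -1.31 (SE 0.43, edgeR adjusted p 0.0343). n-TRcct5 (chr11:115412816-115413409), at an arginine gene near Mrpl58, had 63.3 and 44.3 CPM in controls and 17.1 and 24.6 at 24 h, with -1.26 (SE 0.32, edgeR adjusted p 0.00468). For n-TYgta2 the value was -1.13 (SE 0.29, edgeR adjusted p 0.0048). The other 3 falls were n-TNgtt11, n-TNgtt13 and n-TYgta7. The median over the 57 was -0.30, and over the 29 overlapping peaks -0.53. Without control replicate 2 there were 4 calls, all lower, beside 1.52% of all peaks called higher and 0.773% lower, and without control replicate 1 there were 5.

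At 48 h, 1 peak rose and 7 fell, against 6.09% and 5.41% of all tested peaks. The rise was again n-TAagc15.2, at 1.83 (SE 0.45). The falls were n-TPagg7 at -1.87 (SE 0.62), n-TNgtt11, n-TNgtt13 at -1.57 (SE 0.14), n-TAagc17 at -1.24 (SE 0.43), n-TPagg6 at -1.07 (SE 0.30), and 2 more that are named because they were the rest of the calls. n-TSgct5.2 (chr13:22050437-22051341), at a serine gene, had 60.5 and 53.5 CPM in controls and 35.7 and 20.5 at 48 h (-0.94, SE 0.29, edgeR adjusted p 0.0238). n-TMcat9 (chr13:23531060-23531739), beside a methionine gene and at the histone gene H4c8, had 41.3 and 79.5 CPM in controls and 33.1 and 37.6 at 48 h (-0.90, SE 0.27, edgeR adjusted p 0.0182). It was the only fall of a peak beside a tRNA gene at any of the 3 times in this fit. Without control replicate 2 there were 3 calls, all lower, beside 1.16% and 1.17% of all peaks, and without 48 h replicate 1 there were 4.

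At 72 h, 2 peaks rose and 4 fell, against 6.84% and 5.74% of all tested peaks. The rises were n-TAagc15.2 at 2.24 (SE 0.47) and n-TEctc12 at 1.77 (SE 0.52, edgeR adjusted p 0.0151). The falls were n-TAagc17 at -1.81 (SE 0.56, edgeR adjusted p 0.0215), n-TNgtt13 at -1.57 (SE 0.16), n-TNgtt11, and n-TPagg6 at -1.04 (SE 0.36, edgeR adjusted p 0.0416). The median over the 57 was -0.05, with -0.19 for the overlapping peaks and 0.24 for those beside. Leaving out control replicate 2 gave 3 calls, all lower, beside 1.59% and 1.64% of all peaks, and leaving out 72 h replicate 1 gave 2.

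Between 24 and 72 h directly, 1 peak was higher and 1 lower, against 2.32% and 2.39% of all tested peaks. n-TRcct5 went from 17.1 and 24.6 CPM at 24 h to 48.5 and 62.7 at 72 h, which is within the range of its controls, with a log2 difference of 1.35 (SE 0.34, edgeR adjusted p 0.0105). n-TNgtt13 went from 205 and 184 CPM to 116 and 125, a difference of -0.69 (SE 0.18, edgeR adjusted p 0.0119). Both calls ended without 24 h replicate 1, at adjusted p values of 0.0977 and 0.0826, and without 72 h replicate 2, at 0.131 and 0.0669. DESeq2 called neither, nor any other tRNA-gene peak (3 had an unadjusted p below 0.05), and over all peaks it called 0.00944% higher and 0.0142% lower. The n-TNgtt13 call also ended without 72 h replicate 1, at 0.163. The median of the 57 was 0.27, with 42 positive, against -0.01 for all tested peaks and 0.31 for protein-coding boundary peaks.

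The strongest tRNA-gene peaks by mean level, after n-TNgtt13 (199 CPM) and n-TNgtt11 (197 CPM), did not pass the test over the mean. n-TVaac8.2 (chr3:30601872-30602981), beside a valine gene at the start of Mynn, had 121 and 87.1 CPM in controls and 73.6 to 138 in treated libraries, with a log2 fold change of -0.02 (SE 0.17). n-TIaat16 (chr7:28372387-28373134), over an isoleucine gene near Plekhg2, had 88.0 and 100.9 CPM in controls and 71.6 to 116 in treated libraries (-0.08, SE 0.17). n-TRacg6 (chr14:54517390-54517708), over an arginine gene near Prmt5, which encodes an arginine methyltransferase, had 74.3 and 102 CPM and 54.6 to 91.0 (-0.28, SE 0.18). Controls and treated libraries overlapped in all 3. A further 2 peaks are named for their printed sequences, after their values were seen. The tRNA gene of n-TRtcg5, printed above, lies 146 bases before a transcript start of Polg, the gene of the mitochondrial DNA polymerase. No protein-coding boundary was counted within 1 kb of that tRNA gene. The peak n-TRtcg5 had 74.3 and 87.1 CPM in controls and 71.9 to 84.7 in treated libraries, with a log2 fold change of -0.10 (SE 0.18). n-TLaag4, before Polr3e, had 13.8 and 19.9 CPM in controls and 13.7 to 43.9 in treated libraries (0.22, SE 0.37).

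The weakest tested peaks show where depth limits the result. n-TPagg7 and n-TAagc11, which fell, were among the 5 with the lowest mean level, at 10.3 and 12.0 CPM, and their 8 libraries held 41 and 51 counts in all. n-TEttc4.3 had 19.2 and 18.3 CPM in controls and 0 to 13.2 in treated libraries, with -1.30 (SE 0.50, edgeR adjusted p 0.0567). n-TDgtc12 had 2.75 and 24.5 CPM in its 2 controls, so the controls alone spanned all treated libraries. n-TEttc6 had 5.50 and 19.9 CPM in controls and 6.84 to 25.6 in treated libraries. Besides n-TYgta2, n-TRtct1 and n-TStga1 also had 4 tRNA genes within 1 kb. n-TRtct1 had 19.2 and 15.3 CPM in controls and 11.6 to 18.8 in treated libraries (-0.12, SE 0.40), and n-TStga1, with 22 and 6.11 CPM in controls, was not tested.

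At listed genes of RNA polymerase III, its factors and regulators, and tRNA handling, 14 peaks were called higher in eribulin and 1 lower over the mean. Some of these genes, such as Snapc4 and Polr2f, are not particular to tRNA genes. Of all tested peaks 8.27% were called higher and 8.53% lower, and of the tested peaks at protein-coding boundaries, where these lists lie, 12.8% and 2.52%. Of 18 RNA polymerase III subunit genes 16 had a peak within 1 kb of a boundary. Of the 19 tested peaks 4 rose and 0 fell over the mean (0 lower at an unadjusted p below 0.05, and 0 called by DESeq2), with a median of 0.19. The largest rises were at Polr2f, a subunit shared by the nuclear polymerases (1.14, SE 0.31), Polr1d (1.12, SE 0.31) and Polr3d (1.07, SE 0.30). Polr2f had 16.5 and 21.4 CPM in controls and 32.4 to 53.3 in treated libraries. Without control replicate 1 none of these was called (4 higher at an unadjusted p below 0.05), and without control replicate 2, 1 was. The n-TLaag4 peak before Polr3e is counted here too.

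Of 19 genes of TFIIIB, TFIIIC and regulators 15 had a peak. Of 15 tested peaks 2 rose and 1 fell (0 called by DESeq2, 2 higher and 1 lower at its unadjusted p below 0.05). The rises were at Snapc4 (1.36, SE 0.33) and Snapc2 (1.16, SE 0.30), parts of the complex that binds small nuclear RNA promoters. The fall was at Gtf3c6, a TFIIIC subunit, with 140.3 and 147 CPM in controls and 75.3 to 106 in treated libraries (-0.66, SE 0.15, edgeR adjusted p 0.00105). Without control replicate 2 none of these calls was left (2 higher and 1 lower at an unadjusted p below 0.05).

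Of 24 aminoacyl-tRNA synthetase genes, whose products load tRNAs with amino acids, 20 had a peak. Of 21 tested 1 rose (0 called by DESeq2, 1 higher and 0 lower at its unadjusted p below 0.05). This was at Aars, the alanine enzyme, from 16.5 and 6.11 CPM in controls to 23.1 to 42.6 in treated libraries (1.67, SE 0.40). The list's median was 0.37. Of 44 genes of tRNA processing and modification 26 had a peak, and of 28 tested 7 rose and 0 fell (1 lower at an unadjusted p below 0.05; DESeq2 called 1 higher and 0 lower), with a median of 0.33. They were led by Pus1, a pseudouridine synthase (2.02, SE 0.39), and by Rpp14 (1.65, SE 0.48) and Pop1 (1.37, SE 0.47), subunits of RNase P, which trims tRNA precursors. Without control replicate 2 edgeR called 0 in each of these 2 lists, with 2 and 5 higher at an unadjusted p below 0.05. Of 14 other RNA polymerase III transcripts matched, 4 had a peak, Rn7sk, Rpph1, Rmrp and Bc1, and none was called by edgeR or DESeq2 (0 at an unadjusted p below 0.05 by either). Their median was 0.10. The protein-coding lists lie at gene boundaries, whose peaks had a median of 0.20 as a class, and whether the lists differ from that class was not tested.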

How the data were processed

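The deposited table holds raw counts of the authors for 8 ZEB1 libraries in 23623 consensus peaks, and the deposited narrowPeak lists give the authors' fold over IgG and −log10 q per peak. The submitters' processing notes name Bowtie2 2.2.6, Picard, MACS2 2.1.1, bedtools 2.30.0 and featureCounts with GRCm38 (mm10), and per the labels reads were paired, 76 bp long. The role of replicate 2 in the lists, and the treatment of reads with several placements, were not given in the sources used here. No count column belongs to the IgG library.

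edgeR 4.0.16 in R 4.3.3 tested 21192 peaks (filterByExpr by group, TMM factors 0.994 to 1.01, quasi-likelihood, 1 mean per group, 4 residual degrees of freedom). Calls used 0.05 on p-values adjusted by Benjamini and Hochberg's method across the tested table. DESeq2 1.42.0 was an alternative. CPM are counts over TMM-adjusted totals in tested peaks. Genes and sequences are RefSeq GRCm38.p6, and sequence for most tRNA genes was not used here.

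The peaks and gene lists were chosen with earlier results of these data known. Named peaks are the called ones with non-overlapping groups (10 each way over the mean, 5 per time), the 5 highest, the 5 lowest tested, the 3 with most tRNA genes, and the 3 largest called per list; others are said to be named after their values were seen. The fit was tested on simulated counts.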

Additional observations from a re-analysis of the deposited data

Results flagged for a closer look

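The 2 tRNA-gene peaks below differed between 24 and 72 h of eribulin when that difference was tested itself (edgeR, all libraries in the fit). n-TRcct5, over an arginine tRNA gene near Mrpl58, was 1.35 higher at 72 h on the log2 scale, after a fall of 1.26 at 24 h and a value of 0.09 at 72 h against control. n-TNgtt13, over an asparagine tRNA gene and the U1 gene Rnu1b6, had a difference of -0.69, since its fall of 0.88 at 24 h stood at 1.57 by 72 h. DESeq2 called neither: its adjusted p was 0.349 for n-TNgtt13, and it gave none for n-TRcct5. Groups of 2 libraries are too small to look for single outlying samples.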

How the results depend on the processing

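TMM, RLE factors and library totals each gave 10 calls over the mean. No log2 fold change of a named peak turned sign under the alternatives run: 245 values kept their side of the threshold and 73 no longer passed it. Calls over 24 h, 48 h, 72 h, the mean and 72 against 24 h numbered 9, 8, 6, 10 and 2. DESeq2 gave 2, 2, 2, 3 and 0 (3 at an unadjusted p below 0.05 in the last), libraries thinned to the smallest total 4, 3, 3, 6 and 0 (7 unadjusted), and peaks with no protein-coding boundary or small nuclear RNA gene 5, 4, 2, 6 and 0 (3 unadjusted). Leaving out 1 library in turn gave 4 to 6, 3 to 6, 2 to 5, 3 to 12 and 0 to 2 calls, lowest over the mean without control replicate 2. Fewer counts or libraries enter the thinned and left-out fits, and the cause of the lower DESeq2 counts was not tested. The share of tRNA genes with a peak was 10.05% by overlap and 36.5% within 5 kb, against 25%. Asking for a −log10 q of 5 or more, the list shares were 49.4%, 15.3%, 22.4% and 17.6% (all peaks 59.997%, 44.9%, 52.1% and 33.9%), and with overlap of 50% of the peak 78.8%, 20%, 22.4% and 27.1% (all peaks 74.6%, 53.5%, 50.4% and 41.8%).

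With the replicate block the calls were 9, 6, 6, 11 and 2. Whether the replicate numbers pair the libraries cannot be told. Same-numbered libraries deviated with correlations from -0.0302 to 0.00100, but replicates differed by about counting error, so a pairing could leave no trace here. The block ended the calls at 48 h for n-TPagg7 (adjusted p 0.0588) and n-TAagc17 (0.0538) and at 72 h for n-TPagg6 (0.0539).

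Most tRNA-gene peaks held few counts, with a median of 15 per library where tested, and 28 of the 85 were not tested at this depth.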
